A study of Homo sapiens and Mus musculus with 100 samples.

Results

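The 51 genes described here form a list tied to the vitamin B2 cofactors FAD or FMN, outside the best known flavin pathways. It holds dehydrogenases and assembly factors of mitochondria, oxidases of choline, glycine and amines, peroxisomal enzymes, reductases that pass electrons to cytochromes, and flavin monooxygenases. Histone demethylases, thiol oxidases, tRNA dihydrouridine synthases, quinone and biliverdin reductases, actin monooxygenases and the cryptochromes complete it. The list is broad: BLVRB is included as a reductase of biliverdin and free flavins, and the cryptochromes as repressors of the clock. All members were chosen by symbol, with earlier results of these data known. All 51 were found among the 28035 genes of each human table and, in mouse spelling, among the 24940 genes of each mouse table.

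Vitamin B2, riboflavin, is taken up by cells and converted to FMN and then to FAD. Many enzymes that bind either cofactor use it to take up electrons and pass them on, for example to oxygen, a quinone or another protein. The liver is rich in such enzymes, which oxidise choline derivatives, branched fatty acids, amines and foreign compounds there. The aryl hydrocarbon receptor, AhR, is a ligand-activated transcription factor that induces CYP1A1, and the enzymes IDO and TDO make kynurenine, which can act as its ligand.

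The study measured messenger RNA in HepG2 cells, a human hepatoblastoma-derived line, in Caco-2 cells, a human colon carcinoma line, and in mouse liver and mouse hepatocytes. HepG2 controls and cells deprived of vitamin B2 were sampled on days 3, 6, 9 and 12. Another 3 HepG2 experiments compared the same conditions at day 12: the second with or without an AhR inhibitor, the third with or without an IDO/TDO inhibitor, and the last in cells given a control guide RNA or an AhR guide RNA. Another set of HepG2 cells received DMSO or a treatment labelled Kyn at day 12, each with or without the AhR inhibitor. Caco-2 controls and deprived cells were sampled at day 9. Mouse hepatocytes from AhR-flox animals, control or deprived, carried Ad-Cont or Ad-Cre, and livers came from control or deprived mice, both with a label of 4 weeks. Every hepatocyte group thus shares the floxed allele, and the sources used here do not state the mice's sex, age or strain, the inhibitors' names, which exon was floxed or where the guide cuts. The file headers give 10 uM for the AhR inhibitor of the second experiment; no other inhibitor or Kyn dose was found in them or in the labels. Each group had 3 libraries, except that 4 columns per liver group were used out of 5 labelled samples. Nothing in the labels says whether HepG2 and Caco-2 replicates were separate cultures, so p-values measure the spread between these libraries.

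Between 4049600 and 19644000 reads per library lay in listed genes. Values are TPM, reads per transcript length scaled to a common total, and a gene was tested where it had at least 1 TPM in at least 3 libraries of its table, or 5 in liver. Differences are on the log2(TPM + 1) scale, deprived minus control, each with its standard error (SE), from limma with Benjamini-Hochberg adjustment over all genes of the table and a threshold of 0.05. For deprivation, rose and fell mean higher and lower than in controls of the same day, not a change with time. Hepatocyte marker levels differed with the treatment. At day 12, 6 of 6 hepatocyte markers (albumin and others) were lower in deprived HepG2 cells. Their summed level was then 29300 to 30800 TPM in controls and 7000 to 7380 TPM in deprived cells. At day 3 it was 6700 to 6730 TPM in controls and 5760 to 6110 TPM in deprived cells, so it rose with time mainly in controls. In bulk samples, fewer cells of a type and less RNA per cell cannot be told apart. A guide can disrupt a protein without changing the level of its 3′ tag, and AHR mRNA overlapped between the guides (4.48 to 4.88 TPM in AhR guide controls, 4.37 to 6.51 TPM in control guide controls). CYP1A1 went from 4.20 ± 0.39 to 33.5 ± 2.33 TPM on deprivation with the control guide (mean ± SD, n = 3) and was 1.88 ± 0.0426 and 1.74 ± 0.537 TPM with the AhR guide.

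At day 12, HepG2 cells without vitamin B2 had lower levels of FMO5, QSOX1, RETSAT and the enzymes of choline and sarcosine oxidation, and higher levels of AIFM2, BLVRB, SMOX, DLD and KDM1B. In the time course 19 of 40 members were higher and 11 lower at day 12 (34% and 18.4% of all genes). The second experiment gave 20 and 9 of 40 (44.6% and 16.9%), the third 24 and 10 of 41 (53.6% and 14.3%) and the control guide 18 and 10 of 41 (43.6% and 17.1%). The members' medians, 0.19, 0.30, 0.42 and 0.19, stood beside medians of 0.10, 0.23, 0.30 and 0.20 over all genes. Of the 40 members tested in all 4 day 12 experiments, 13 were higher and 8 lower in every one of them. Among all 11087 genes tested in the 4, 25.9% were higher and 7.95% lower in all, and after quantile normalization 15.6% and 13.6%. NQO2 was the 1 member called in opposite directions (-0.35 in the second experiment, 0.46 in the third), and 2 members, CYB5R1 and DUS2, passed in none. Under quantile normalization, median scaling and a voom fit on recovered reads, all 8 lower members and 7 of the 13 higher members kept their calls in all 4 experiments; CYB5R4, DUS1L, DUS4L, MAOB, MICAL1 and QSOX2 did not keep theirs under all 3. Under each of these scalings POR was lower in all 4 as well.

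The sequences before the transcription start of 2 members that were lower and 2 that were higher are shown because AhR and NRF2, a factor that responds to electrophiles, bind short known motifs. These are the RefSeq sequences of build GRCh38.p14, the 250 bases before the start, written 5′ to 3′ along the gene. The start is RefSeq's; the transcripts of the deposited tables start elsewhere, so that the FMO5 window lies wholly inside its transcript there and the other 3 windows partly overlap theirs. Capitals mark GCGTG, the core of the AhR response element, and TGACNNNGC, the core of the antioxidant response element, on either strand. The FMO5 window lies at chr1:147225340-147225589 (minus strand), QSOX1 at chr1:180154619-180154868 (plus strand), AIFM2 at chr10:70132826-70133075 (minus strand) and BLVRB at chr19:40465746-40465995 (minus strand).
FMO5: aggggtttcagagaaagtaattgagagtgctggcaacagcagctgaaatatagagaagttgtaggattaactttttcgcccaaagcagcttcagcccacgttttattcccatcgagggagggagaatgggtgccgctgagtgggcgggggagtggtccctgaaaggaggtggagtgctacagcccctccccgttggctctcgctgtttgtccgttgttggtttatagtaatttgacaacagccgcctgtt
QSOX1: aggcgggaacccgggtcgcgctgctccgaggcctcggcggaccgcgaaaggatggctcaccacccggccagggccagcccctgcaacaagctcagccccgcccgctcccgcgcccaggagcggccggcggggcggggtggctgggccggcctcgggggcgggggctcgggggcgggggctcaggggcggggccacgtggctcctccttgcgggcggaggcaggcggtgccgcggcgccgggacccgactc
AIFM2: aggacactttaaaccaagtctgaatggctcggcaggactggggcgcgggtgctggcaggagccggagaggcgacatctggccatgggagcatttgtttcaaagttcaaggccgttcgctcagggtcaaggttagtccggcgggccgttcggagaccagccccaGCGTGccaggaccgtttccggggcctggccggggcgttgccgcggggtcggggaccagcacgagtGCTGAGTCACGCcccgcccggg
BLVRB: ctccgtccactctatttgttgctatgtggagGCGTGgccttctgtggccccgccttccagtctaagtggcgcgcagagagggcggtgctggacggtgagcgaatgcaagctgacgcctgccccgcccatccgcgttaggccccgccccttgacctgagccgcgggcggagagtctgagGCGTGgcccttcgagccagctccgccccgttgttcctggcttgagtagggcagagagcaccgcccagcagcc
FMO5 and QSOX1 held neither motif in this window. AIFM2 held 2 matches to GCGTG and 1 to TGACNNNGC, and one of the former overlaps the latter, whereas BLVRB held 2 matches to GCGTG. A promoter was found for 40 of the 51 members. GCGTG was in 31.9% of all 27305 promoters of this length, in 16 of 40 members, in 6 of the 11 matched members that were higher in all 4 experiments and in 1 of the 7 that were lower. TGACNNNGC was in 11% of all promoters, in 6 of 40 members, in 2 of the 11 higher and in 0 of the 7 lower. A match is a description of the letters and not a bound site.

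FMO5, a flavin monooxygenase abundant in liver that can insert oxygen next to a carbonyl group, had the largest difference of any member at day 12. Its transcript is placed at chr1:147184305-147225638 in hg38. In the time course FMO5 was at 41.7, 48.3 and 42.3 TPM in controls and 8.27, 6.79 and 10.7 TPM in deprived cells. In the second experiment it was at 35.7, 42.7 and 45.3 against 3.91, 5.2 and 5.23 TPM, in the third at 38.8, 45.2 and 39.4 against 6.56, 7.39 and 6.45 TPM, and with the control guide at 53.0, 58.7 and 43.4 against 7.67, 6.59 and 7.47 TPM. All 12 control libraries lay above all 12 deprived ones. The log2 fold changes of FMO5 were -2.25 ± 0.12 (SE), -2.87 ± 0.14, -2.43 ± 0.08 and -2.67 ± 0.11 in that order, with adjusted p between 2.45e-13 and 2.63e-09.

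QSOX1, a secreted and Golgi oxidase that makes disulfide bonds, (chr1:180154833-180198034) was at 9.31, 11.0 and 7.84 TPM in day 12 controls and 2.92, 2.1 and 2.86 TPM in deprived cells. Its values were 4.86, 6.42 and 5.99 against 2.74, 2.2 and 2.15 TPM in the second experiment, 13.5, 16.2 and 15.7 against 4.02, 5.05 and 4.55 TPM in the third, and 10.8, 12.0 and 6.61 against 4.72, 4.93 and 4.59 TPM with the control guide. The groups of each experiment did not overlap, and QSOX1 fell by 1.51, 1.00, 1.54 and 0.87 on the log2 scale. RETSAT (chr2:85341955-85354698), which saturates a double bond of retinol, fell from 32.5, 30.9 and 28.9 to 14.3, 15.7 and 13.8 TPM in the time course, a log2 change of -1.02 ± 0.07 (adjusted p = 1.34e-11). Its changes in the other 3 experiments were -0.70, -0.92 and -0.94, again with no overlap of the groups. QSOX2, the paralogue of QSOX1, went the other way, by 0.47 to 0.86 in the 4 experiments.

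SARDH oxidises sarcosine to glycine in mitochondria, and CHDH starts the path from choline to betaine that feeds it. SARDH was at 4.97, 3.3 and 4.02 TPM in day 12 controls and 2.55, 2.46 and 2.19 TPM in deprived cells, and its differences in the 4 experiments were -0.57, -0.98, -0.72 and -0.97. CHDH was lower by 0.48 to 0.76 and PIPOX, the peroxisomal oxidase of pipecolate and sarcosine, by 0.15 to 0.47 on the log2 scale. The PIPOX call of the time course was lost without control replicate 3, deprived replicate 2 or deprived replicate 3 (adjusted p up to 0.143). Thus 3 of the 3 tested members of choline, glycine and pipecolate oxidation fell in each experiment. Of the choline and glycine genes next to them, 5 of 7 were higher and 0 lower in the time course, 5 of 7 higher and 1 (GNMT) lower in the second experiment, 6 of 7 higher in the third and 7 of 8 with the control guide. Of all genes, 34%, 44.6%, 53.6% and 43.6% were higher in these comparisons, and under quantile normalization the list's counts were 5 and 0, 3 and 1, 6 and 0, and 7 and 0. BHMT2, which makes methionine with S-methylmethionine, rose by 0.72 to 0.98, PEMT, which makes phosphatidylcholine, by 0.51 to 0.88 and SHMT1, which interconverts serine and glycine, by 0.41 to 0.91.

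PCYOX1, which oxidises prenylcysteine, fell by 0.49 to 0.73. ACOX2, the peroxisomal oxidase of bile acid intermediates and branched fatty acids, fell by 0.35 to 0.75, and its call in the third experiment was lost without deprived replicate 1 (adjusted p = 0.0764). Of the other 2 peroxisomal members tested, ACOX3 rose in the second experiment (0.40) and with the control guide (0.35). AGPS, which makes ether lipids, rose in the second (0.32) and the third (0.28) experiment, but its difference in the third was -0.02 to -0.03 under 3 other scalings.

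AIFM2, also called FSP1, reduces coenzyme Q at the plasma membrane and protects lipids from peroxidation. It lies at chr10:70112267-70132934 in hg38 and was at 14.0, 12.9 and 13.1 TPM in day 12 controls and 27.4, 25.6 and 26.1 TPM in deprived cells. AIFM2 was at 17.4, 14.8 and 15.9 against 40.0, 38.1 and 37.8 TPM in the second experiment, 20.3, 23.5 and 23.2 against 45.1, 44.7 and 42.4 TPM in the third, and 19.7, 19.9 and 20.2 against 56.1, 49.9 and 49.5 TPM with the control guide. Every deprived library lay above every control library. The log2 fold changes were 0.93 ± 0.07 (SE), 1.22 ± 0.07, 0.95 ± 0.07 and 1.33 ± 0.06 (adjusted p from 7.94e-10 to 2.04e-08). A gene on the opposite strand, H2AFY2, has exon sequence within the last 500 bases of the AIFM2 transcript. Reads of the pair cannot be told apart where they overlap if counting ignored the strand, which is not stated.

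BLVRB (chr19:40447784-40465818), which reduces biliverdin and free flavins, was at 19.4, 23.1 and 22.9 TPM in day 12 controls and 45.8, 37.5 and 33.0 TPM in deprived cells. Values were 26.3, 34.4 and 40.7 against 59.3, 59.6 and 60.1 TPM in the second experiment, 46.4, 45.2 and 39.7 against 92.4, 83.5 and 87.6 TPM in the third, and 36.9, 42.4 and 38.1 against 82.3, 92.5 and 90.0 TPM with the control guide. No group overlapped its control, and BLVRB rose by 0.79, 0.82, 0.99 and 1.15 on the log2 scale. The other member of this group, NQO2, a quinone reductase that takes electrons from dihydronicotinamide riboside, was at 4.64, 5.03 and 3.71 TPM in day 12 controls and 5.42, 6.97 and 5.12 TPM in deprived cells, and its direction differed between experiments as given above.

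SMOX (chr20:4148779-4187747) oxidises spermine to spermidine and releases hydrogen peroxide. It was at 9.21, 7.38 and 8.6 TPM in day 12 controls of the time course and 12.6, 12.4 and 13.2 TPM in deprived cells (0.55 ± 0.10, adjusted p = 0.000107). The difference was larger elsewhere: 4.08, 3.1 and 4.26 against 16.2, 14.5 and 14.5 TPM in the second experiment (1.74), 5.17, 5.31 and 6.11 against 22.2, 17.7 and 16.8 TPM in the third (1.60), and 4.61, 4.96 and 7.29 against 17.9, 20.0 and 20.5 TPM with the control guide (1.65). These comparisons come from separate tables, and the difference between them was not tested. Of the 8 polyamine genes around SMOX that were tested, 7 were higher and 1 lower in the time course, and 6 and 1, 6 and 1, and 5 and 1 in the other experiments. Of all genes, 34%, 44.6%, 53.6% and 43.6% were higher in these comparisons. Under quantile normalization the polyamine counts were 5 and 1, 5 and 1, 5 and 2, and 5 and 2. ODC1, which makes putrescine, rose by 0.83 to 1.71 and SRM, which makes spermidine, by 0.89 to 1.37, while AMD1, which supplies the aminopropyl group, fell by 0.36 to 0.97. MAOB, a mitochondrial oxidase of dopamine and phenylethylamine, rose by 0.37 to 0.62, and its paralogue MAOA passed in 3 of the 4 experiments, with 0.30 in the time course, 0.66 in the third experiment and 0.28 with the control guide. The MAOB call of the second experiment was lost without control replicate 2 or deprived replicate 1 (adjusted p up to 0.0733).

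**Figure D1:**
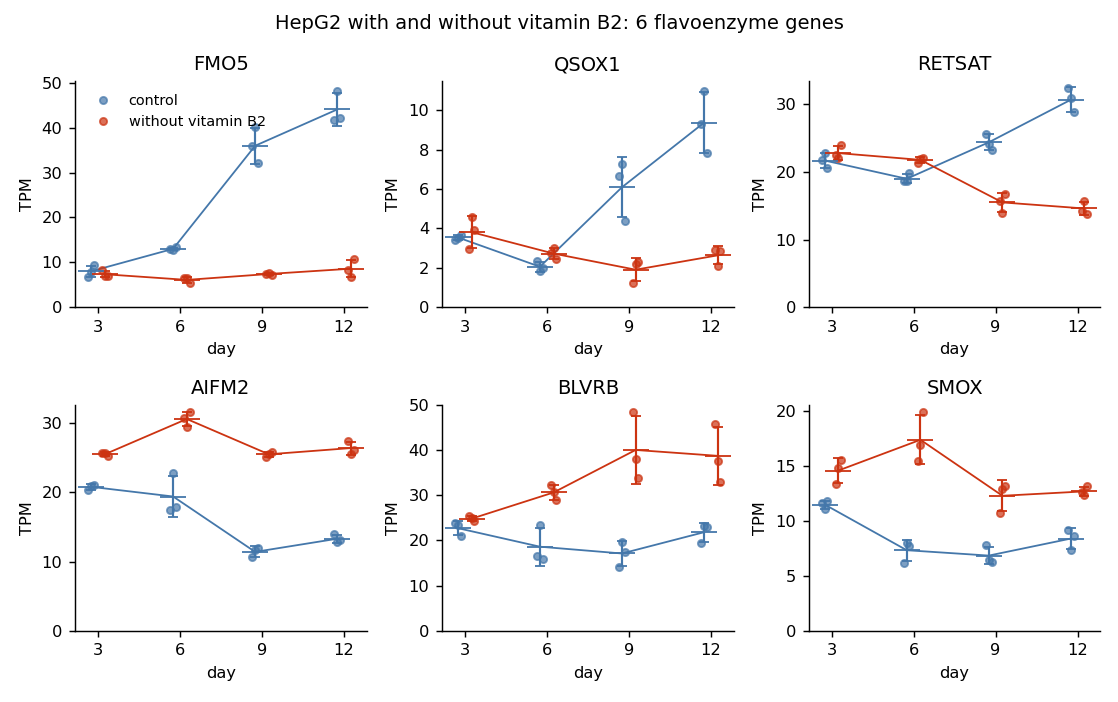
TPM (vertical axis, from 0) of 6 members in HepG2 controls (blue) and cells without vitamin B2 (red) at days 3, 6, 9 and 12. Points are libraries, and bars are the mean ± SD of 3. FMO5, QSOX1 and RETSAT go up in controls and not in deprived cells, whereas AIFM2, BLVRB and SMOX stay higher in deprived cells from day 6.

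Among the mitochondrial dehydrogenases and assembly factors, 5 of 8 tested members rose and 1 fell in the time course at day 12, and 4, 7 and 4 rose and 0 fell in the other experiments. With 34%, 44.6%, 53.6% and 43.6% of all genes higher, the counts of the second experiment and the control guide lie near the background, and under quantile normalization 4, 3, 5 and 3 members of this group were higher and 1, 1, 0 and 0 lower. DLD, the shared dihydrolipoamide dehydrogenase of the pyruvate, oxoglutarate, branched-chain and glycine cleavage complexes, went from 9.03, 9.7 and 8.2 to 15.0, 15.1 and 15.9 TPM, with no overlap. Its log2 fold changes were 0.71, 0.59, 1.04 and 0.60. Of its partners, 7 of 11 rose and 1 fell in the time course, 2 of 10 rose and 1 fell in the second experiment, 7 of 9 rose and 1 fell in the third, and 6 of 10 rose and 1 fell with the control guide. Under quantile normalization these counts were 4 and 1, 1 and 2, 4 and 2, and 1 and 2. PDHB was the member that fell in all 4, by 0.56 to 0.82, and GCSH, the lipoyl carrier of glycine cleavage, rose by 0.71 to 1.26.

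DHODH, which makes orotate for pyrimidines at the inner mitochondrial membrane, was at 2.76, 2.54 and 3.18 TPM in day 12 controls and 4.41, 4.56 and 4.23 TPM in deprived cells, and it rose by 0.50 to 0.85 in the 4 experiments. Of the 3 other pyrimidine genes tested, CAD and UCK2 rose in all 4 and UMPS passed in none. Among all genes, 25.9% were higher in all 4. Under quantile normalization 1, 2, 1 and 2 of the 3 pyrimidine genes were higher and 0, 0, 1 and 0 lower. TXNRD2, the mitochondrial thioredoxin reductase, went from 3.05, 2.82 and 3.06 to 4.42, 4.82 and 4.68 TPM and rose by 0.50 to 0.93, and its substrate TXN2 rose by 0.43 to 0.88. FOXRED1, an assembly factor of complex I, passed in 3 experiments (0.65, 0.55 and 0.31) and AIFM1, the mitochondrial NADH oxidase, in 3 (0.21, 0.28 and 0.37). D2HGDH, which oxidises D-2-hydroxyglutarate, fell in the time course only (-0.38, adjusted p = 0.0137), a call lost without 2 of the 6 libraries (adjusted p up to 0.135).

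KDM1B, a demethylase of histone H3 lysine residues, was at 1.39, 1.08 and 1.5 TPM in day 12 controls and 2.7, 2.81 and 2.76 TPM in deprived cells, and it rose by 0.63 to 0.87. Its paralogue KDM1A rose by 0.32 to 0.43 in 3 experiments and differed by -0.04 with the control guide. CYB5R4, a cytochrome b5 reductase with its own cytochrome domain, went from 2.31, 1.69 and 1.75 to 3.44, 3.18 and 3.42 TPM and rose by 0.55 to 0.73. Its call with the control guide was lost without control replicate 2, deprived replicate 1 or deprived replicate 3 (adjusted p up to 0.116). POR, the electron donor of microsomal cytochromes P450, fell in 3 experiments (-0.41, -0.31 and -0.34), and CYB5R3 fell in 2 (-0.21 and -0.32). Another gene, TMEM120A, has exon sequence on the opposite strand within the last 500 bases of POR.

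Of the 4 tRNA dihydrouridine synthases, which reduce uridines of transfer RNA, DUS1L rose by 0.33 to 0.80 and DUS4L by 0.39 to 1.03 in all 4 experiments. DUS3L rose by 0.60 to 1.02 in 3 and differed by -0.01 in the time course. Another gene, AC011499.1, has exon sequence on the same strand within the last 500 bases of DUS3L, so their reads may not be told apart there. MICAL1, which oxidises methionines of actin, rose by 0.31 to 0.96, and its call in the time course was lost without 4 of the 6 libraries (control replicates 2 and 3, deprived replicates 1 and 2, adjusted p up to 0.18). CRY1, a cryptochrome that represses CLOCK and BMAL1, rose by 0.42 to 0.58 in the 3 later experiments and differed by -0.03 in the time course. Of the clock genes tested, 0 were higher and 5 lower in the time course (13 tested), 4 and 6 in the second experiment (12), 2 and 6 in the third (12) and 1 and 6 with the control guide (13). Of all genes, 34%, 44.6%, 53.6% and 43.6% were higher and 18.4%, 16.9%, 14.3% and 17.1% lower in these comparisons. Under quantile normalization the clock gene counts were 0 and 10, 0 and 6, 2 and 8, and 1 and 6. RORA, PER1 and HLF were lower in all 4.

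Of RFK, which makes FMN, FLAD1, which makes FAD, the mitochondrial carrier SLC25A32 and the riboflavin transporter SLC52A2, only RFK rose in the time course (0.38), whereas all 4 rose in each of the 3 other day 12 experiments, by 0.35 to 1.00. Of all genes, 34%, 44.6%, 53.6% and 43.6% were higher in these 4 comparisons. Under quantile normalization 1, 4, 2 and 3 of the 4 were higher.

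**Figure D2:**
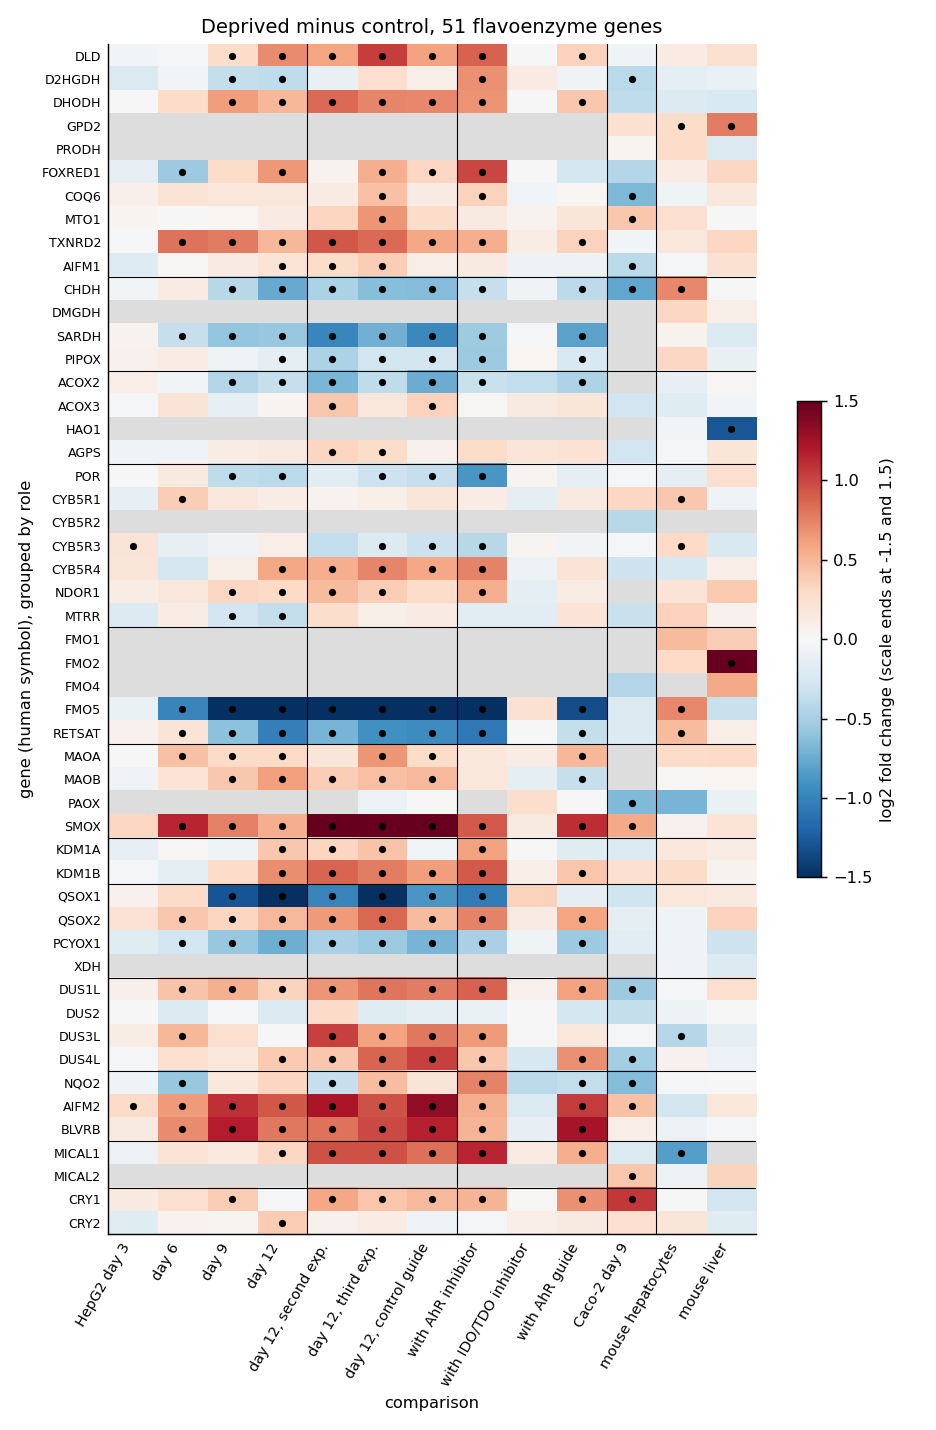
Log2 fold change on the log2(TPM + 1) scale, deprived minus control, for the 51 members (rows, grouped by role) in 13 comparisons (columns). Red is higher and blue lower in deprived samples, a black dot marks an adjusted p under 0.05, grey marks a member below the filter, and the colour scale ends at -1.5 and 1.5. The column for the IDO/TDO inhibitor holds no dot.

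On day 3, 2 of 40 members were higher and 0 lower (2.74% and 2% of all genes): AIFM2 (0.29, adjusted p = 0.0211) and CYB5R3 (0.19, adjusted p = 0.0384). Both calls failed whichever of the 6 libraries was left out (adjusted p up to 0.0794 and 0.181). On day 6, 10 were higher and 5 lower (19% and 14% of all genes; 9 and 7 members after quantile normalization). On day 9, 12 were higher and 10 lower (29.4% and 19.7%), or 10 and 12 after quantile normalization. Day 12 had 19 and 11 (14 and 12 after quantile normalization).

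SMOX was at 6.22, 8.02 and 7.76 TPM in day 6 controls and 15.5, 16.9 and 19.9 TPM in deprived cells, 1.14 ± 0.10 on the log2 scale (adjusted p = 1.35e-08). TXNRD2 (0.82), BLVRB (0.71), AIFM2 (0.64), DUS3L (0.50), MAOA (0.44), DUS1L (0.43) and QSOX2 (0.41) were also higher on day 6. At day 9 the largest rises were those of BLVRB (1.18), AIFM2 (1.09), TXNRD2 (0.78), SMOX (0.76), DHODH (0.63), DUS1L (0.53), MAOB (0.41) and CRY1 (0.38). FMO5 was lower than in controls of the same day, by 0.99 at day 6 and by 2.14 at day 9. SARDH (-0.34) and PCYOX1 (-0.29) were lower by day 6, and the SARDH call was lost without control replicate 2 or deprived replicate 1 (adjusted p up to 0.213). At day 9 SARDH (-0.59), PCYOX1 (-0.57), ACOX2 (-0.44), CHDH (-0.42) and POR (-0.38) were lower. QSOX1 on day 6 was at 2.33, 1.84 and 1.97 TPM in controls and 2.74, 3.0 and 2.43 TPM in deprived cells, which did not pass, and it fell by 1.29 at day 9. RETSAT was higher at day 6 (0.19, adjusted p = 0.0317), a call lost without 4 of the 6 libraries (up to 0.0867), and fell at days 9 (-0.62) and 12 (-1.02). NQO2 was lower than in controls at day 6 (-0.57). FOXRED1 was lower than in controls at day 6 (-0.54) and higher at day 12 (0.65), while controls themselves changed by -1.35 from day 3 to day 12. The day 6 call of FOXRED1 was lost without control replicate 3 or deprived replicate 1 (adjusted p up to 0.111).

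The effect at day 12 minus that at day 3 passed for 13 members upwards and 9 downwards (23.8% and 13.9% of all genes). It was -2.15 ± 0.17 for FMO5, -1.58 ± 0.23 for QSOX1 and -1.09 ± 0.09 for RETSAT, against 0.77 for FOXRED1, 0.75 for DLD and 0.72 for KDM1B. Controls themselves changed over this time: from day 3 to day 12, 11 members rose and 17 fell (20.1% and 46.8% of all genes, whose median was -0.21; 14 and 12 members after quantile normalization). FMO5 went from 7.99 ± 1.24 TPM (SD, n = 3) in day 3 controls to 44.1 ± 3.62 TPM at day 12, a log2 change of 2.33 ± 0.12 (adjusted p = 6.55e-14), while deprived cells were at 7.33, 6.07, 7.39 and 8.57 TPM on the 4 days. QSOX1 (1.18), POR (1.10), CYB5R3 (0.72), PIPOX (0.52), RETSAT (0.48), CHDH (0.48) and DUS3L (0.37) also rose in controls. FOXRED1 (-1.35), KDM1B (-1.04), NQO2 (-0.98), CYB5R4 (-0.90), KDM1A (-0.82), MAOB (-0.81), MICAL1 (-0.78), AIFM1 (-0.76), DLD (-0.75) and AIFM2 (-0.60) fell in controls. Of the 8 members lower in deprived cells in all 4 experiments, 6 (FMO5, QSOX1, RETSAT, CHDH, PIPOX and PCYOX1) rose with time in controls. Of the 13 members higher in all 4, KDM1B, CYB5R4, MAOB, MICAL1, DLD, AIFM2, DHODH, SMOX and QSOX2 fell with time in controls. The day 12 controls of the time course enter both comparisons, so opposite signs are partly built in. The share of such genes among all genes was not computed. The summed hepatocyte markers of controls went from 6700 to 6730 TPM at day 3 to 29300 to 30800 TPM at day 12, and the part of that change in these results was not tested.

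The third experiment compared deprivation without and with the IDO/TDO inhibitor. Neither enzyme activity nor kynurenine is part of these data, and effects of the inhibitor outside these enzymes cannot be told apart. Without the inhibitor, 24 members were higher and 10 lower, or 16 and 13 after quantile normalization. With it, 0 of 41 members passed by limma in either direction (0.854% and 0.532% of all genes), 6 had an unadjusted p under 0.05, and a voom fit called 1 higher (QSOX1, 0.32) and 1 lower (AIFM2, -0.26). FMO5 with the inhibitor was at 43.7, 42.9 and 46.3 TPM in controls and 53.4, 53.5 and 49.7 TPM in deprived cells, and QSOX1 at 14.7, 15.4 and 15.1 against 19.2, 20.4 and 18.4 TPM. Deprived libraries were the higher ones here, without overlap, but neither passed (adjusted p = 0.18 and 0.0796). SMOX was at 4.57, 5.43 and 4.87 against 5.27, 5.31 and 6.18 TPM, and AIFM2 at 21.3, 23.2 and 23.0 against 20.1, 19.5 and 18.1 TPM.

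The change in the deprivation effect with the inhibitor passed for 32 of 41 members, 9 upwards and 23 downwards (12.2% and 41.5% of all genes, whose median was -0.27; 9 and 11 members under quantile normalization). It was 2.66 ± 0.11 for FMO5 (adjusted p = 1.79e-11), 1.88 ± 0.13 for QSOX1, 0.92 for RETSAT and 0.70 for SARDH, and -1.46 for SMOX, -1.17 for AIFM2, -1.11 for BLVRB and -1.05 for DLD. With the inhibitor, CYB5A (-0.27, 1 of 6 partners of reductases) and GPD1 (-0.58, 1 of 3 glycerol phosphate genes) were lower, and the other 8 of the 10 partner lists held no call. The summed hepatocyte markers were 28800 to 29600 TPM in deprived cells with the inhibitor and 7470 to 7760 TPM without it.

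**Figure D3:**
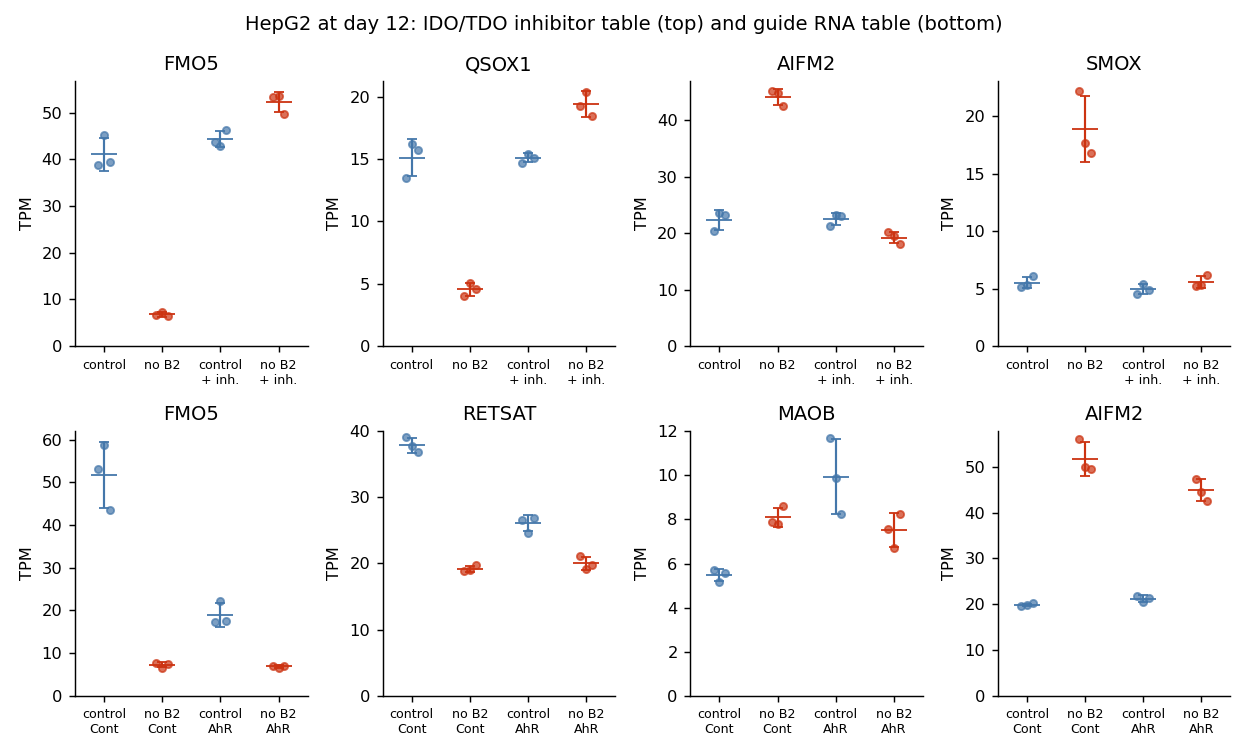
TPM (vertical axis, from 0) at day 12 in the IDO/TDO inhibitor table (top: FMO5, QSOX1, AIFM2, SMOX) and in the guide RNA table (bottom: FMO5, RETSAT, MAOB, AIFM2), controls in blue and deprived cells in red; points are libraries and bars the mean ± SD of 3. With the inhibitor, deprived cells lie near controls, and with the AhR guide, control FMO5 lies at 17.2 to 22.1 TPM against 43.4 to 58.7 TPM with the control guide.

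With the control guide 18 members were higher and 10 lower (13 and 10 after quantile normalization), and with the AhR guide 13 and 9 (37.6% and 15.6% of all genes; 9 and 13). The difference between guides passed for 3 members upwards and 4 downwards (6.16% and 8.23%; 4 and 2). FMO5 with the AhR guide was at 17.2, 22.1 and 17.4 TPM in controls and 7.07, 6.56 and 6.94 TPM in deprived cells. Its groups did not overlap, and it fell by 1.33 against 2.67 with the control guide, a difference of 1.34 ± 0.16 (adjusted p = 0.000121). The deprived libraries spanned 6.56 to 7.67 TPM over both guides, and the controls of the AhR guide lay below those of the control guide.

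RETSAT with the AhR guide was at 26.6, 24.6 and 26.9 against 21.1, 19.1 and 19.8 TPM, and its difference between guides was 0.58 ± 0.08 (adjusted p = 0.000665). QSOX1 was at 2.55, 1.7 and 2.63 against 1.76, 2.1 and 2.11 TPM, which overlap (-0.13, adjusted p = 0.55), but its difference between guides, 0.75 ± 0.24, did not pass (adjusted p = 0.0548). MAOB rose with the control guide and fell with the AhR guide. It was first at 5.71, 5.15 and 5.57 against 7.89, 7.81 and 8.59 TPM, and with the AhR guide at 11.7, 9.87 and 8.26 against 7.58, 6.71 and 8.23 TPM. The difference was -0.84 ± 0.15 (adjusted p = 0.00243), while the fall with the AhR guide (-0.35) was lost without control replicate 1 or deprived replicate 2 (adjusted p up to 0.0684).

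AIFM2 (-0.29), FOXRED1 (-0.56), NQO2 (-0.56) and CYB5R3 (0.28) also passed for the difference between guides, but lost that call without 10, 9, 3 and 11 of the 12 libraries. AIFM2 still rose by 1.05, BLVRB by 1.24 and SMOX by 1.11 with the AhR guide, and CRY1 (0.68), DUS4L (0.68), DUS1L (0.60), QSOX2 (0.59) and MICAL1 (0.54) were also higher. SARDH fell by 0.80 and PCYOX1 by 0.54, and ACOX2 (-0.46), CHDH (-0.39), NQO2 (-0.37) and RETSAT (-0.36) were lower; the ACOX2 call was lost without control replicate 3 or deprived replicate 2 (adjusted p up to 0.0835). The summed hepatocyte markers were 21800 to 23300 TPM in AhR guide controls and 28400 to 29400 TPM in control guide controls, and 7660 to 8070 against 6350 to 6650 TPM in deprived cells; their part in these values was not tested.

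In the AhR inhibitor table, the headers give the 6 libraries with the inhibitor another date than the 6 without it, and name a sequencing run for the latter alone. Depth was 12577600 to 19427900 reads with it and 5891600 to 8976000 without it. The inhibitor and these differences, which may include separate cultures or library preparations, cannot be told apart. Without it 20 members were higher and 9 lower (13 and 12 after quantile normalization), and with it 20 and 10 (45.1% and 12.4% of all genes; 15 and 13). FMO5 with the inhibitor was at 30.4, 31.0 and 21.3 TPM in controls and 6.44, 6.46 and 5.99 TPM in deprived cells. It fell by 1.95, and QSOX1 by 1.05, RETSAT by 1.07 and POR by 0.87, while MICAL1 rose by 1.14, FOXRED1 by 1.00, KDM1B by 0.92, DUS1L by 0.89, DLD by 0.88 and CYB5R4 by 0.74. PIPOX (-0.54), SARDH (-0.53), PCYOX1 (-0.49) and CYB5R3 (-0.42) were lower, and the CYB5R3 call was lost without 5 of the 6 libraries (adjusted p up to 0.135). SMOX was at 5.01, 5.26 and 16.3 TPM in controls with the inhibitor and 14.1, 17.2 and 15.0 TPM in deprived cells, which overlap through control replicate 3; that library also stood apart from its replicates over all genes. The SMOX difference was 0.92, and its call was lost without 5 of the 6 libraries (adjusted p up to 0.145).

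The effect with the inhibitor minus that without it passed for 5 members upwards and 2 downwards (12.9% and 9.57% of all genes; 6 and 5 members after quantile normalization). It was 1.09 ± 0.15 for NQO2, 0.95 for FOXRED1, 0.92 for FMO5, 0.80 for D2HGDH and 0.45 for SARDH, and -0.70 for POR and -0.68 ± 0.11 for AIFM2. NQO2 was at 11.7, 11.9 and 13.6 against 10.6, 9.19 and 8.72 TPM without the inhibitor and 5.85, 4.57 and 4.57 against 8.64, 8.57 and 9.73 TPM with it, so the order of the groups turned. The SARDH call was lost without 6 of the 12 libraries (adjusted p up to 0.07), and that of FMO5 under a voom fit.

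Kyn was compared with DMSO in HepG2 cells whose sample titles do not state the vitamin B2 status. Against DMSO, 4 of 40 were higher and 1 lower (6.11% and 5.54% of all genes). CYB5R1, a reductase of cytochrome b5 at outer membranes, was at 5.55, 6.63 and 7.12 TPM with DMSO and 10.5, 10.7 and 9.52 TPM with Kyn, with no overlap (0.60 ± 0.12, adjusted p = 0.00616). PCYOX1 rose by 0.43, MAOA by 0.40 and CHDH by 0.36, and POR fell by 0.19; the calls of MAOA and POR were each lost without 4 of the 6 libraries (adjusted p up to 0.0834 and 0.0941). FMO5 was at 67.7, 70.9 and 63.4 against 70.9, 78.2 and 72.9 TPM and did not pass. PCYOX1 and CHDH were thus higher with Kyn and lower on deprivation at day 12. MAOA and POR went the same way with Kyn as in the day 12 deprivation experiments in which they passed, higher and lower respectively. CYB5R1 passed in no day 12 deprivation experiment.

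With the AhR inhibitor, Kyn against DMSO gave 1 higher and 2 lower members (1.74% and 9.1% of all genes; 2 and 1 after quantile normalization): FMO5 (0.34), SMOX (-0.78) and QSOX2 (-0.42), the last lost without 5 of 6 libraries (adjusted p up to 0.165). SMOX was at 10.5, 7.74 and 8.98 with DMSO and 5.31, 5.35 and 3.88 TPM with Kyn. Of 6 hepatocyte markers, 4 were higher with Kyn in the presence of the inhibitor (summed level 14900 to 15500 against 17900 to 19500 TPM), and without the inhibitor 1 was higher and 3 lower (15000 to 15800 against 14400 to 15400 TPM). Their part in the FMO5 value was not tested. CYP1A1 was at 1.73 ± 0.198 TPM with DMSO and 2.11 ± 0.345 TPM with Kyn (mean ± SD, n = 3), and at 1.07 ± 0.253 and 2.38 ± 0.805 TPM with the inhibitor. The difference between these effects passed for 0 members upwards and 4 downwards (2.11% and 6.83%; 2 and 1 after quantile normalization), CYB5R1 (-0.85 ± 0.17, adjusted p = 0.00865), NQO2 (-0.87), SMOX (-0.67) and PCYOX1 (-0.39). The calls of NQO2, SMOX and PCYOX1 were lost without 11, 9 and 11 of the 12 libraries, and that of CYB5R1 held without each of them.

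In Caco-2 cells at day 9, 5 of 40 members were higher and 8 lower on deprivation (14.3% and 19.5% of all genes; 5 and 7 after quantile normalization). CRY1 had the largest rise: 3.41, 4.12 and 3.58 TPM in controls and 8.43, 8.57 and 9.4 TPM in deprived cells, with no overlap (1.06 ± 0.11, adjusted p = 5.22e-05). Of 13 clock genes tested there, 5 were higher and 0 lower: BHLHE40 (1.52), NR1D1 (1.06), PER1 (0.93), NR1D2 (0.66) and RORA (0.49). SMOX rose by 0.57 and AIFM2 by 0.44, as in HepG2, and the polyamine acetyltransferase SAT1 rose by 1.19. The AIFM2 call and that of MICAL2 (0.40) were lost without deprived replicate 1 (adjusted p = 0.0513 and 0.055), and that of MTO1 (0.40), which modifies mitochondrial tRNA, without 5 of 6 libraries.

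CHDH fell in Caco-2 cells from 7.33, 7.14 and 7.82 to 4.38, 4.12 and 3.31 TPM (-0.78 ± 0.12, adjusted p = 0.000667). COQ6, a hydroxylase of coenzyme Q synthesis, fell by 0.67, PAOX, the oxidase of acetylated polyamines, by 0.66 and NQO2 by 0.65. DUS1L (-0.54), DUS4L (-0.51), AIFM1 (-0.41) and D2HGDH (-0.40) were also lower, and the calls of DUS4L and D2HGDH were lost without 4 of 6 libraries each (adjusted p up to 0.144 and 0.0684). DUS1L and DUS4L were higher on deprivation in HepG2 in all 4 day 12 experiments, though not under every scaling. At day 9 in HepG2, DUS1L was higher (0.53) and DUS4L did not pass (0.17, adjusted p = 0.159). FMO5 was at 1.83, 1.16 and 1.64 against 0.944, 1.86 and 0.82 TPM and did not pass. Within their last 500 bases, COQ6 overlaps exon sequence of ENTPD5 on the opposite strand, and PAOX that of another gene on its own strand. The 6 hepatocyte markers, which Caco-2 cells also express, were all lower, and of 5 enterocyte markers tested 1 was higher and 4 lower; their summed level was 485 to 534 TPM in controls and 262 to 302 TPM in deprived cells, and its part in these results was not tested.

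Mouse hepatocytes with Ad-Cont had 6 of 49 members higher and 2 lower on deprivation (4.32% and 5.46% of all genes). Fmo5 was at 13.2, 14.4 and 12.5 TPM in controls and 23.4, 25.6 and 19.3 TPM in deprived cells, with no overlap (0.72 ± 0.11, adjusted p = 0.000658), so it was higher here and lower in HepG2. Chdh was at 4.2, 3.62 and 3.08 against 9.6, 6.84 and 4.28 TPM (0.72) and Retsat at 22.0, 24.7 and 21.1 against 35.3, 31.9 and 28.8 TPM (0.48), again the reverse of HepG2. Mical1 was at 2.28, 3.0 and 2.23 against 0.488, 1.17 and 1.34 TPM (-0.83). Cyb5r1 (0.41), Cyb5r3 (0.30) and Gpd2 (0.27) were higher and Dus3l (-0.43) lower.

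The calls of Fmo5 and Cyb5r3 held on leaving out each library. Those of Chdh, Retsat and Dus3l were each lost without 4 of 6, those of Cyb5r1 and Gpd2 without 5, and that of Mical1 without control replicate 2 (adjusted p = 0.0662). With Ad-Cre, 0 of 49 members passed by limma (0.214% and 0.115% of all genes), 3 had an unadjusted p under 0.05 and a voom fit called 1 (Fmo5, 0.53). Fmo5 was then at 14.5, 12.3 and 12.8 against 20.0, 18.7 and 17.7 TPM, without overlap (0.48, adjusted p = 0.0807). The difference between Ad-Cre and Ad-Cont passed for 0 members (0.181% and 0.0658%), with 9 at an unadjusted p under 0.05 and 1 by voom (Cyb5r3, -0.30), and it was -0.24 for Fmo5 (adjusted p = 0.531). Ahr mRNA was 9.65 and 10.2 TPM with Ad-Cont and 7.79 and 7.10 TPM with Ad-Cre (means of controls and deprived cells). A 3′ tag outside the floxed part does not report its loss. Cyp1a1 was barely detected, at means of 0.145 and 0.021 TPM with Ad-Cont and 0.0213 and 0.113 TPM with Ad-Cre (controls and deprived cells). Loss of AhR function with Ad-Cre was therefore not shown by these values. In the Ad-Cont libraries 4 hepatocyte markers summed to 4490 to 4610 TPM in controls and 4620 to 5260 TPM in deprived cells, and 2 were higher and 1 lower. Markers of other cells were present there too. The 5 stellate and fibroblast markers summed to 20.0 to 21.3 TPM in controls and 8.32 to 18.1 TPM in deprived cells. The 4 cholangiocyte markers summed to 108 to 116 against 59.0 to 103 TPM, and 6 macrophage markers to 81.8 to 95.5 against 70.0 to 153 TPM. The part of all these markers in the calls was not tested.

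In mouse liver, 2 of 49 members were higher and 1 lower (2.09% and 1.13% of all genes; 1 and 1 after quantile normalization). Fmo2 (mm10 chr1:162874318-162898493), a flavin monooxygenase best known from lung, was at 6.68, 15.1, 8.07 and 6.7 TPM in controls and 54, 52.1, 20.9 and 32.2 TPM in deprived livers, with no overlap. Its log2 fold change was 1.98 ± 0.35 (adjusted p = 0.0271). Hao1 (mm10 chr2:134497361-134554352), the peroxisomal FMN enzyme that oxidises glycolate to glyoxylate, was at 151, 120, 186 and 135 against 87.2, 42.5, 50.7 and 67.6 TPM, without overlap (-1.28 ± 0.21, adjusted p = 0.0123). Gpd2, the mitochondrial enzyme of the glycerol phosphate shuttle, was at 6.46, 9.41, 6.07 and 9.05 against 11.7, 17.6, 14.7 and 11.4 TPM (0.77 ± 0.17, adjusted p = 0.0358).

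Each of these 3 calls depended on single livers: that of Hao1 was lost without control column 1 (adjusted p = 0.0548), that of Fmo2 without control columns 1, 3 or 4 or deprived column 2 (up to 0.1), and that of Gpd2 without 5 of 8 columns (up to 0.138) and under quantile normalization. Fmo5 was at 159, 189, 182 and 178 against 159, 140, 98.3 and 176 TPM, which overlap (-0.33, adjusted p = 0.225). Endothelial markers summed to 42.1 to 62.1 TPM in control and 56.8 to 72.4 TPM in deprived livers, and 0 of 4 passed. Their part in these values was not tested.

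**Figure D4:**
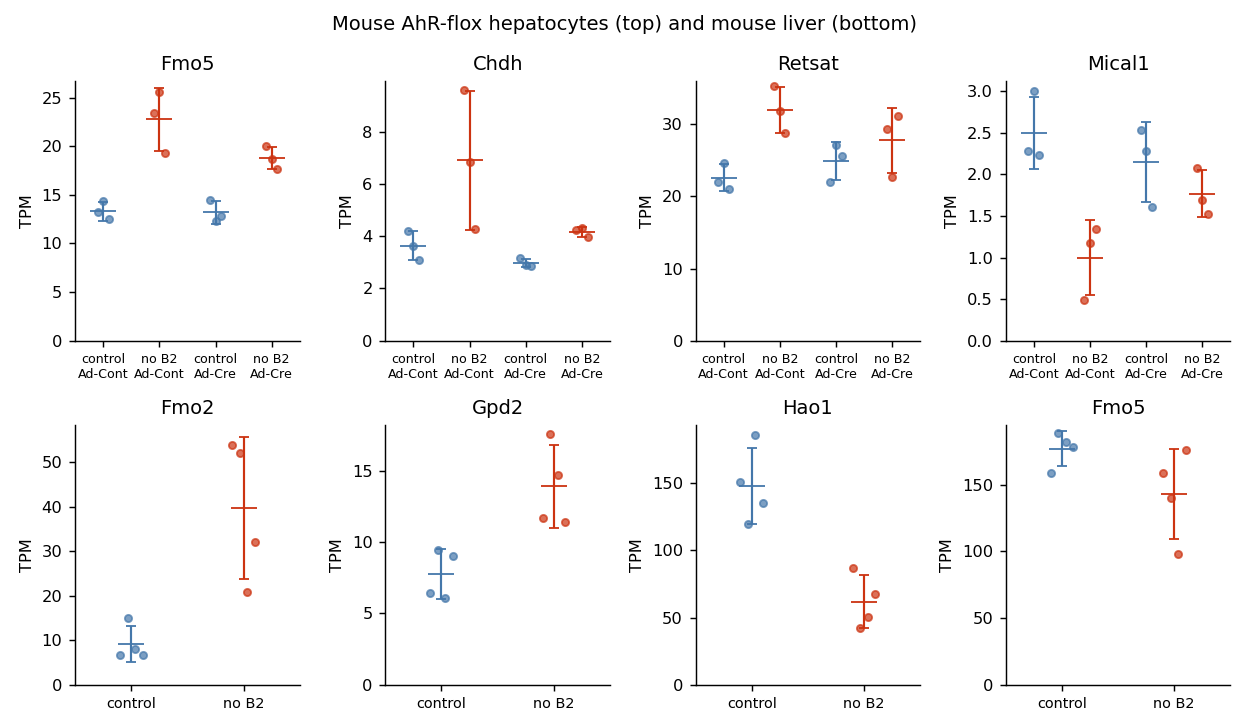
TPM (vertical axis, from 0) of Fmo5, Chdh, Retsat and Mical1 in AhR-flox hepatocytes with Ad-Cont or Ad-Cre (top, 3 libraries per group) and of Fmo2, Gpd2, Hao1 and Fmo5 in mouse liver (bottom, 4 columns per group); controls are blue, deprived samples red, and bars are the mean ± SD. The deprived Fmo5 points lie above the controls with Ad-Cont and Ad-Cre, although only the former passed the test, and Hao1 lies at 42.5 to 87.2 TPM in deprived livers, below every control.

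In the HepG2 time course the members below the filter were GPD2, PRODH, DMGDH, HAO1, CYB5R2, FMO1, FMO2, FMO4, PAOX, XDH and MICAL2, at no more than 1.16 TPM (DMGDH) in any library. In Caco-2 cells they were DMGDH, SARDH, PIPOX, ACOX2, HAO1 (listed at 0 in every library), NDOR1, FMO1, FMO2, MAOA, MAOB and XDH. Cyb5r2 and Fmo4 in mouse hepatocytes and Cyb5r2 and Mical1 in liver fell below it as well. The liver enzymes Hao1 and Fmo2, which moved in mouse liver, were therefore not tested in HepG2 cells, and 33 members were tested in HepG2, Caco-2, mouse hepatocytes and liver alike. Of the members described most here, FMO5, RETSAT and CHDH are among them.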

How the data were processed

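Libraries were made with a 3′ messenger RNA kit, per the labels' protocols; these describe cultured cells and do not mention how the livers were prepared. The submitters' processing notes list STAR, Bowtie2, HOMER, hg38 and mm10, without versions or roles. The authors deposited TPM, made by HOMER with 1 transcript per symbol per the file headers. The TPM of listed genes sum to 359500 to 405213 in human and 569555 to 581347 in mouse libraries, less than full scale. With a 3′ kit, levels were not compared between genes. Whole reads were recovered from the TPM steps (100% of checks within 0.1 of a whole read), which gave the depths, 4049600 to 19644000 reads.

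All 8 tables (98 libraries of 100 labelled samples, 32 groups, 23 comparisons) were tested separately. Groups came from the labels. Values were transformed to log2(TPM + 1) and fitted over all genes with limma 3.58.1 in R 4.3.3 (group means, robust trended variances, Benjamini-Hochberg within each comparison, 0.05). Genes had at least 1 TPM in 3 libraries, 5 in liver. Alternatives were a pseudocount of 0.1, no filter, quantile normalization, median scaling, voom on recovered reads, a replicate block and leaving out each library. The replicate numbers were not used as pairs, since same-numbered deviations correlated at -0.11 to 0.08. The code was tested on simulated data.

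Members and partner lists were chosen with earlier results of these data known. The text names, per comparison, the members past the threshold with the largest changes, up to 8 each way, and members called alike in all 4 day 12 HepG2 experiments. Values per library are given for 12 of the latter, ordered by the smallest of their 4 changes, and for the 4 largest per mouse table. Other values per library, such as those of NQO2, MAOB, POR or CYB5R1, were chosen after they were seen. No protein sequence was used here.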

Additional observations from a re-analysis of the deposited data

Results flagged for a closer look

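In the liver, where 4 columns per group allow a check for a column far from the other 3, 7 of 98 group and member combinations held one; chance gives about 1 in 20. In deprived livers these were the highest Agps value (3.45 TPM), the highest Aifm2 value (22.9 TPM) and the lowest Cyb5r4 value (8.52 TPM). In control livers they were the highest Fmo2 (15.1 TPM), Qsox2 (3.03 TPM) and Dus4l (3.35 TPM) values and the lowest Retsat value (1280 TPM).

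The other results were picked out because the effect of a treatment differed between 2 settings by limma's test of that difference (adjusted p under 0.05), on the log2(TPM + 1) scale. The deprivation effect at day 12 minus that at day 3 was -2.15 for FMO5, -1.58 for QSOX1, -1.09 for RETSAT, -0.72 for CHDH, -0.63 for SARDH, -0.54 for PCYOX1, -0.45 for ACOX2 and -0.40 for POR. It was 0.53 for KDM1A, 0.56 for CRY2, 0.65 for AIFM2, 0.67 for both MAOB and BLVRB, 0.72 for KDM1B, 0.75 for DLD and 0.77 for FOXRED1.

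The effect with the IDO/TDO inhibitor minus that without it was -1.46 for SMOX, -1.17 for AIFM2, -1.11 for BLVRB, -1.10 for DUS4L, -1.05 for DLD, -0.86 for NQO2, -0.84 for MICAL1 and -0.81 for CYB5R4. It was 2.66 for FMO5, 1.88 for QSOX1, 0.92 for RETSAT, 0.70 for SARDH, 0.57 for CHDH, 0.49 for PCYOX1, 0.35 for POR and 0.30 for PIPOX.

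With the AhR guide the effect differed from that with the control guide by 1.34 for FMO5, 0.58 for RETSAT, 0.28 for CYB5R3, -0.29 for AIFM2, -0.56 for NQO2 and FOXRED1 and -0.84 for MAOB. With the AhR inhibitor it differed by 1.09 for NQO2, 0.95 for FOXRED1, 0.92 for FMO5, 0.80 for D2HGDH, 0.45 for SARDH, -0.68 for AIFM2 and -0.70 for POR; here the inhibitor cannot be told apart from the date and other differences between these libraries. The Kyn effect changed with the AhR inhibitor by -0.87 for NQO2, -0.85 for CYB5R1, -0.67 for SMOX and -0.39 for PCYOX1.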

How the results depend on the processing

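Of 344 member calls, 234 were lost in none of the alternatives; 2 were lost with a pseudocount of 0.1, 33 with no filter, 62 under quantile normalization, 67 under median scaling, 66 under voom and 9 of 341 with the replicate block. AGPS in the third experiment (0.28) was the 1 reversed call, at -0.02 under quantile normalization and -0.03 under median scaling and voom. The number of members called for the AhR inhibitor difference went from 7 to 11 under quantile normalization and median scaling, and that for the IDO/TDO inhibitor difference from 32 to 20 under these and voom. Voom called 2 members with the IDO/TDO inhibitor, 1 with Ad-Cre and 1 for the Ad-Cre difference, each 0 by limma. With no filter, the guide difference went from 7 to 4 and the Kyn difference from 4 to 1. The causes were not tested.

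Leaving out 1 library gave 0 members at day 3 (2 with all), 0 to 1 with the IDO/TDO inhibitor, 3 to 10 for the guide difference, 3 to 7 with Ad-Cont (8 with all), 0 to 1 with Ad-Cre, 0 to 3 for the Ad-Cre difference, 3 to 6 for Kyn, 1 to 3 for the Kyn difference and 0 to 4 in liver (3 with all). With the replicate block, 28 members were called at day 12, 30 in the second experiment, 34 in the third, 27 with the control guide and 20 alike in all 4, against 30, 29, 34, 28 and 21. No block could be fitted in liver, whose columns carry no number.

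No liver group exceeds 4 columns and no other group 3 libraries, which limits small changes, and members near 1 TPM are the least certain.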
